A study of Rattus norvegicus with 15 samples.

Results

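The 10 genes of fatty acid synthesis and lipid storage described here were measured in the gastrocnemius muscle of male Wistar rats: Scd, Fasn, Acaca, Acly, Elovl6, Srebf1, Lpl, Fabp4, G0s2 and Cd36. All probe sets whose only gene symbol is one of these names were taken, which gave 14 probe sets for 10 genes, of 31042 probe sets and 14217 genes measured. A further probe set that carries Cd36 beside another symbol was left out. The rats arrived at 3.5 weeks of age and were given a diet with 15% casein (CN, 4 rats) or a calorie-matched diet with 8% casein (LP, 4 rats) for 4 weeks, with sampling after a 16 h fast. Later groups, with the same first 4 weeks on 15% casein (CN-R, 3 rats) or 8% casein (LP-R, 4 rats), were sampled on day 84, also after a 16 h fast. The study's methods state that both later groups ate the control diet in between, whereas the deposited protocol states that they stayed on their first diet. CN-R replicate 4 is a control by its title and description but is named as protein-restricted in its treatment field. It was kept in CN-R, and its effect on the late results is given below. Each rat gave 1 array of whole muscle RNA, so the exact permutation and limma p-values measure the spread between these rats. Values are log2 signals per probe set. Early and late arrays appear to have been summarized apart, so LP was compared only with CN and LP-R only with CN-R.

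Fatty acid synthesis starts in the cytosol, where Acly makes acetyl-CoA, Acaca carboxylates it to malonyl-CoA, and Fasn builds palmitate from both. Elovl6 lengthens palmitate, Scd places a double bond in the product, and Srebf1 encodes the transcription factor SREBP-1, which drives transcription of these enzymes in response to insulin. Skeletal muscle makes little fatty acid of its own and depends on uptake: Lpl frees fatty acids from lipoproteins at the capillary wall, Cd36 carries them across the membrane, Fabp4 binds them in adipocytes and capillary endothelium, and G0s2 inhibits adipose triglyceride lipase, the enzyme that opens the stored triglyceride pool.

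Promoter windows from 250 bases before to 50 bases after the annotated start were at hand for 5 of the 10 genes in the RefSeq annotation of GRCr8, with 6 windows in all (Scd, Cd36, Acly, G0s2 and a pair for Srebf1). Those of Scd and G0s2 are shown because both genes were called higher in LP. They lie at chr1:253231682-253231981 and chr13:107335899-107336198, both on the minus strand, and are written 5′ to 3′ with any searched motif in capitals.
Scd: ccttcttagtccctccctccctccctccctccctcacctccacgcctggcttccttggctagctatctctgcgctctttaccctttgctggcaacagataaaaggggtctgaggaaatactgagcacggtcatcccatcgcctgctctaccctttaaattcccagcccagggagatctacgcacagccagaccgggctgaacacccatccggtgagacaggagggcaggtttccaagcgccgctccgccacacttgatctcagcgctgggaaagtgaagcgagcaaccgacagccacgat
G0s2: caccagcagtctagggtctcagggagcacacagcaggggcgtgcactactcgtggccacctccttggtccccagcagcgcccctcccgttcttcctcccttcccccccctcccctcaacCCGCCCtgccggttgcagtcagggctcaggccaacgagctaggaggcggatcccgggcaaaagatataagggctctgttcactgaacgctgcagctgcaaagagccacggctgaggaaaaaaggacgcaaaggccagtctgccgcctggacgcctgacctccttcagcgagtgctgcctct
The 4 motifs searched, on both strands, were the sterol regulatory element TCACNCCAC, the E-box CACGTG, the CCAAT box CCAAT and the GC box GGGCGG. Of 33469 rat promoter windows of this length, 1.12% held the first, 6.42% the E-box, 37.5% the CCAAT box and 33.1% the GC box. None of the 6 windows held the sterol regulatory element or the E-box as spelled here. The windows of Scd and Cd36 held none of the 4 motifs, and that of G0s2 held 1 GC box. Acly had 1 CCAAT box and 3 GC boxes, and both Srebf1 windows had 3 GC boxes beside 1 or 2 CCAAT boxes.

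The summarization draws probe sets whose probes do not move together to a constant, so a member was read only where its SD over a set of arrays was above 0.01. In the early arrays 8 member probe sets for 7 genes varied by this limit (Scd, both of Fasn, 1 of Acaca, Lpl, Fabp4, G0s2 and Cd36), and in the late arrays 6 did (Scd, Acaca, Srebf1, Lpl, G0s2 and Cd36). Acly, both probe sets of Elovl6, the other one of Acaca and 1 of Srebf1 were nearly constant throughout. Fasn and Fabp4 were nearly constant in the late arrays, and Srebf1 in the early ones. A constant value is no measurement of an unchanged transcript, and no comparison is drawn for these. Over the whole table, 3974 early and 3100 late probe sets varied. Between arrays of a set, r ran from 0.997 to 0.999 over all 31042 probe sets, most of them nearly constant. The muscle markers Acta1 and Ckm were among the brightest probe sets, with CN means of 14.07 and 14.03 on the log2 scale. Both were nearly constant in both sets.

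After 4 weeks, 4 member probe sets were called higher in LP than in CN by rank products, the study's test, at a proportion of false positives (pfp) up to 0.05. The null of this test permutes values over probe sets within each array, so a pfp does not measure the spread between rats. They were those of Scd, Fasn, Acaca and G0s2. No member was called lower. Over all probe sets 1.67% were called higher and 1.6% lower, and among the varying ones 13.1% and 12.5%. The 8 varying members had a median change of 0.14 on the log2 scale and all lay above 0, beside a median of 0.017 over all varying probe sets. The limma test with Benjamini-Hochberg adjustment called 0% of probe sets (smallest adjusted p = 0.0742 over the table), although 2342 of 31042 had an unadjusted p under 0.05, including 1 of the 8 varying members. About 1552 would be under 0.05 by chance. Among the varying probe sets 576 of 3974 were. When rank products were run on the varying probe sets alone, Scd was the only member still called higher.

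**Figure D1:**
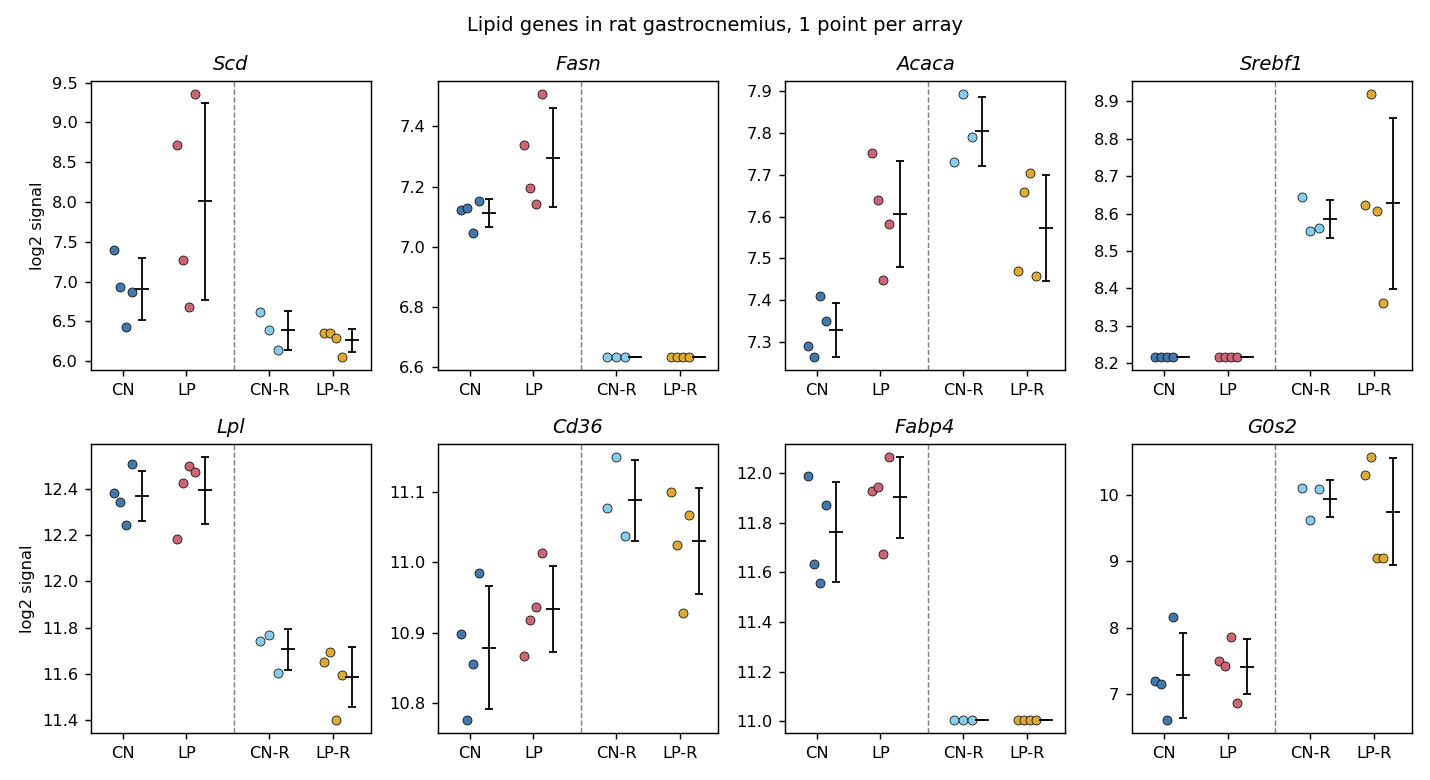
Log2 signal of the 8 genes with a varying probe set, 1 point per array, with the group mean and SD as a bar beside the points. The dashed line divides early from late arrays, whose levels cannot be compared. LP replicates 1 and 4 stand highest for Scd and Fasn, the Acaca groups are apart in both sets in opposite directions, and nearly constant genes form flat rows.

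Scd, the desaturase that makes oleate and palmitoleate, had the largest change among the members. Its log2 signal was 7.40, 6.93, 6.43 and 6.87 in CN replicates 1 to 4, and 8.72, 7.27, 6.68 and 9.35 in LP replicates 1 to 4. LP replicates 1 and 4 were above every CN array, whereas LP replicates 2 and 3 lay within the CN range. The means differed by 1.10 ± 0.65 (SE, n = 4 and 4), or 2.14-fold, with a pfp of 0 in 100 permutations and an exact permutation p = 0.2. Leaving out 1 array at a time gave changes between 0.65 and 1.54, the lowest without LP replicate 4, and the call held each time.

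Acaca, the cytosolic acetyl-CoA carboxylase, was the member whose early groups did not overlap. Its varying probe set read 7.29, 7.26, 7.41 and 7.35 in CN and 7.75, 7.64, 7.45 and 7.58 in LP, in replicate order. Every LP array was above every CN array, with LP replicate 3 closest to the controls. Among all varying probe sets, 7.9% had groups that did not overlap. Acaca was higher in LP by 0.28 ± 0.071 (SE, n = 4 and 4), or 1.21-fold, with an exact permutation p = 0.0286, the smallest this design allows, and a pfp of 0.00336. Its limma p of 0.00643 became 0.582 after adjustment over all probe sets. The rank product call held with any 1 array left out, at changes between 0.23 and 0.33.

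Fasn, the fatty acid synthase, was measured by a pair of probe sets. The brighter one read 7.12, 7.13, 7.05 and 7.15 in CN and 7.34, 7.20, 7.14 and 7.51 in LP. It was called higher, with a change of 0.18 ± 0.085 (SE, n = 4 and 4), or 1.14-fold, a pfp of 0.0225 and an exact permutation p = 0.0571. The other read 6.31, 6.39, 6.34 and 6.34 in CN and 6.55, 6.38, 6.31 and 6.61 in LP, and its change of 0.12 ± 0.073 was not called. In both probe sets LP replicates 1 and 4 were above all CN arrays, and the remaining LP arrays were close to the CN values. The Fasn call was lost without LP replicate 1 (change 0.17), LP replicate 4 (0.11), CN replicate 2 (0.19) or CN replicate 3 (0.16).

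Among the storage and uptake genes, G0s2 was the only one called higher, and its groups overlapped widely. It read 7.20, 7.16, 6.62 and 8.16 in CN and 7.50, 7.43, 7.87 and 6.87 in LP. The highest array was CN replicate 4 and the lowest CN replicate 3, so the LP values lay inside the CN range. The change was 0.13 ± 0.38 (SE, n = 4 and 4), with a pfp of 0.0242 and an exact permutation p = 0.743. Its sign turned without LP replicate 3 (-0.020) or CN replicate 3 (-0.092), and the call was lost as well without LP replicate 1 (0.10), LP replicate 2 (0.13), CN replicate 1 (0.10) or CN replicate 2 (0.090).

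Fabp4 came closest to a call of the rest. This fatty acid binding protein of adipocytes and endothelium read 11.99, 11.63, 11.56 and 11.87 in CN and 11.93, 11.94, 11.67 and 12.06 in LP, with a change of 0.14 ± 0.13 (SE, n = 4 and 4) and a pfp of 0.0533. The groups overlapped, with LP replicate 4 alone above all CN arrays. Without CN replicate 1 its change was 0.21 and it was called higher.

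Cd36, the fatty acid translocase, read 10.90, 10.78, 10.86 and 10.99 in CN and 10.87, 10.92, 10.94 and 11.01 in LP, a change of 0.055 ± 0.053. Lpl, the lipoprotein lipase, read 12.38, 12.35, 12.25 and 12.51 in CN and 12.18, 12.42, 12.50 and 12.47 in LP, a change of 0.024 ± 0.091. Neither was called, and the LP arrays of both lay among those of CN apart from 1 at an edge: LP replicate 4 was the highest for Cd36 and LP replicate 1 the lowest for Lpl.

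**Figure D2:**
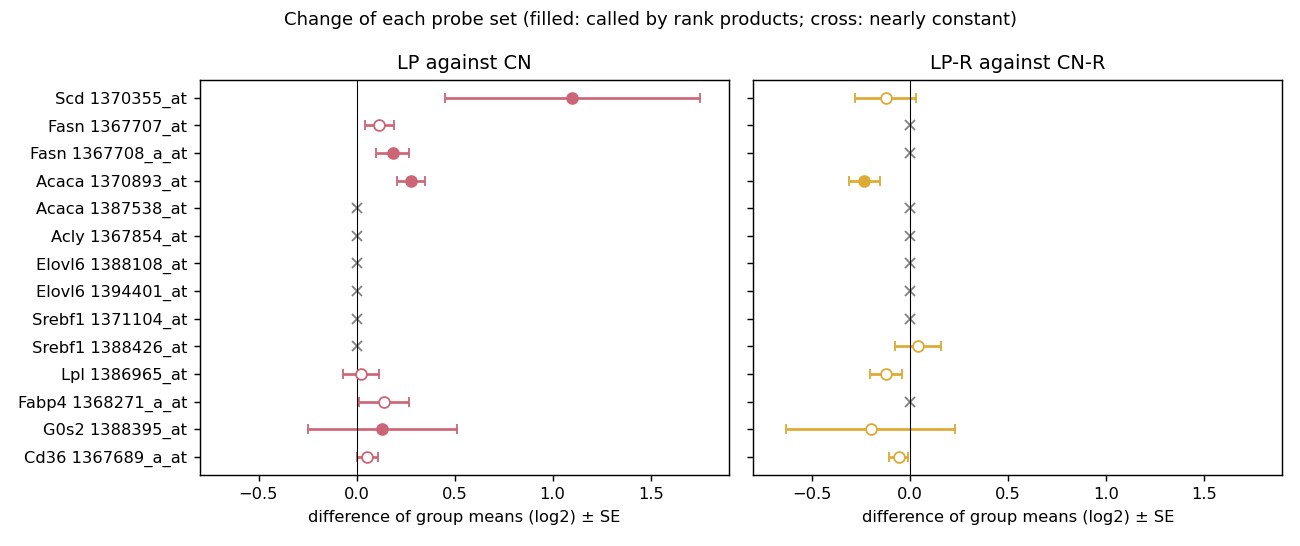
Difference of group means on the log2 scale with its SE for all 14 member probe sets, LP against CN at left and LP-R against CN-R at right. Filled points were called by rank products and crosses mark nearly constant probe sets. Scd has the largest early change, 1.10, with the widest error, and Acaca is the one member called in both comparisons, higher in LP and lower in LP-R.

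In the late rats, no member was called higher in LP-R than in CN-R and 1 was called lower, Acaca. Over all probe sets 0.177% were called higher and 0.432% lower, and among the varying ones 1.77% and 4.32%. The balance of directions depends on the null: pooled over both directions it gave 55 higher and 134 lower, and a null for each direction, added after seeing the data, gave 107 and 53. Of the 6 varying members 5 lay below 0 and 1 above, with a median of -0.12 beside -0.024 over all varying probe sets. By limma 0% were called (smallest adjusted p = 0.539), with 1566 of 31042 at an unadjusted p under 0.05 and 1 of the 6 members among them. That is near the 1552 that chance would give, and among the varying probe sets 113 of 3100 were under 0.05.

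Acaca read 7.73, 7.89 and 7.79 in CN-R replicates 1, 2 and 4, and 7.47, 7.66, 7.70 and 7.46 in LP-R replicates 1 to 4. All LP-R arrays were below all CN-R arrays, with LP-R replicate 3 just under CN-R replicate 1. Non-overlapping groups were found for 3.84% of varying probe sets. The change was -0.23 ± 0.079 (SE, n = 4 and 3), or 1.17-fold lower, with a pfp of 0.0333 and an exact permutation p = 0.0571, where this design allows 0.0286. The call was lost when LP-R replicate 1 (change -0.20), LP-R replicate 4 (-0.19), CN-R replicate 1 (-0.27), CN-R replicate 2 (-0.19) or CN-R replicate 4 (-0.24) was left out, and also when CN-R replicate 4 was counted as LP-R (-0.19). It was lost too when rank products were run on the varying probe sets alone.

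Scd was not called at this stage. It read 6.62, 6.39 and 6.14 in CN-R and 6.35, 6.35, 6.30 and 6.05 in LP-R, a change of -0.12 ± 0.16 (SE, n = 4 and 3) with an exact permutation p = 0.371. All but 1 of the LP-R arrays lay within the CN-R range. Srebf1, the regulator of these enzymes, was measurable only here, at 8.64, 8.55 and 8.56 in CN-R and 8.62, 8.92, 8.61 and 8.36 in LP-R. Its change was 0.042 ± 0.12, with LP-R replicate 2 the highest and LP-R replicate 4 the lowest array. Without CN-R replicate 4 the change was -0.24 for Scd and 0.029 for Srebf1. With that array counted as LP-R it was -0.27 for Scd and 0.016 for Srebf1, and neither gene was called.

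Of the uptake genes, Lpl read 11.74, 11.77 and 11.60 in CN-R and 11.65, 11.69, 11.40 and 11.59 in LP-R, a change of -0.12 ± 0.082 that was not called. Cd36 read 11.08, 11.15 and 11.04 in CN-R and 11.10, 11.03, 10.93 and 11.07 in LP-R, a change of -0.058 ± 0.050. Both overlapped between groups, and LP-R replicate 3 was the lowest array for each. G0s2 read 10.11, 9.63 and 10.09 in CN-R and 10.30, 10.57, 9.05 and 9.06 in LP-R, with LP-R replicates 1 and 2 above and replicates 3 and 4 below all CN-R arrays. Its change of -0.20 ± 0.43 was not called. It was called lower without LP-R replicate 1 (-0.38) or LP-R replicate 2 (-0.47) and turned above 0 without LP-R replicate 3 (0.031) or LP-R replicate 4 (0.030). Without CN-R replicate 4 the changes were -0.17 for Lpl, -0.083 for Cd36 and -0.12 for G0s2. With that array counted as LP-R they were -0.17, -0.082 and -0.054, and none was called.

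Whether the early and the late changes differed was examined by an exact permutation test for the 5 members that varied in both sets. Labels were permuted within each set, which gave 2450 combinations of an early and a late split. The null of this test is no diet effect at either time, which is narrower than equal early and late changes. For Acaca the early change exceeded the late one by 0.51 (log2; exact permutation p = 0.000816). After adjustment over the 2073 probe sets that varied in both sets the p was 0.508, and 0 of the 2073 passed. Scd differed by 1.22 (exact permutation p = 0.111), or by 1.67 with p = 0.0196 without LP replicate 3, and G0s2, Lpl and Cd36 by 0.33, 0.14 and 0.11, with exact permutation p from 0.141 to 0.574. By limma the unadjusted p for Acaca was 0.000618 and the adjusted p 0.386.

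Some pairs of members varied together from rat to rat and others did not, and only a part of the pairs is given. Early r of Scd was -0.11 with Lpl and -0.21 with G0s2, and that of Acaca with Lpl was -0.28. Late r of Srebf1 with Cd36 was -0.22. Over the 8 early arrays Scd and Fasn had r = 0.959 (exact permutation p = 0.00149, adjusted p = 0.376 over the 3973 other varying probe sets) and rho = 0.690 (exact permutation p = 0.0694, adjusted p = 0.928). Without the 2 arrays farthest from the median of Scd, LP replicates 1 and 4, r was 0.624, so the closeness rests largely on those rats. Within groups, after each group was centred on its mean, r was 0.945. Fabp4 followed Scd with r = 0.754 (exact permutation p = 0.0295, adjusted p = 1.000) and rho = 0.857 (exact permutation p = 0.0107, adjusted p = 0.788). Its r with Scd was 0.883 without LP replicates 1 and 4, the farthest for Scd, and 0.707 without CN replicates 2 and 3, the farthest for Fabp4. Acaca followed less closely: r with Scd was 0.635 over all 8 arrays (exact permutation p = 0.0920, adjusted p = 1.000, rho = 0.381 with exact permutation p = 0.360 and adjusted p = 0.998) and 0.353 within groups. It was 0.0676 without LP replicates 1 and 4, the farthest for Scd, and 0.636 without LP replicates 1 and 2, the farthest for Acaca.

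Lpl and Cd36, which act in sequence in fatty acid uptake, had r = 0.688 in the early arrays (exact permutation p = 0.0591, adjusted p = 0.682) with rho = 0.833 (exact permutation p = 0.0154, adjusted p = 0.473), and r = 0.860 without LP replicate 1 and CN replicate 3. In the 7 late arrays r was 0.857 (exact permutation p = 0.0206, adjusted p = 0.743) with rho = 0.679 (exact permutation p = 0.110, adjusted p = 0.536). There it fell to 0.0983 without LP-R replicate 3 and CN-R replicate 2, so the late relation rests on those 2 arrays. Srebf1 and G0s2 had r = 0.736 in the late arrays (exact permutation p = 0.0393, adjusted p = 0.428) and rho = 0.750 (exact permutation p = 0.0663, adjusted p = 0.709). It was 0.801 without LP-R replicates 3 and 4, the farthest for G0s2, but 0.221 without LP-R replicates 2 and 4, the farthest for Srebf1. For no member did any probe set pass adjustment in either set of arrays.

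**Figure D3:**
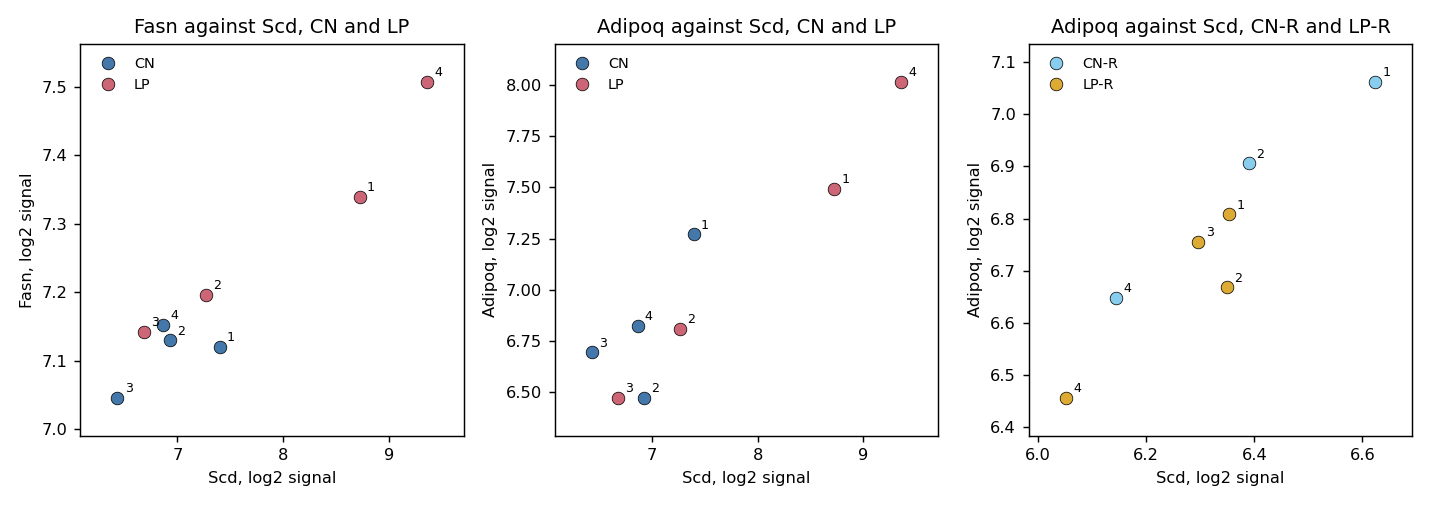
Log2 signal of Fasn (left) and Adipoq (middle) against Scd in the 8 early arrays, and of Adipoq against Scd in the 7 late arrays (right), with replicate numbers beside the points. LP replicates 1 and 4 stand at the upper right of both early plots, and the late arrays run from LP-R replicate 4 to CN-R replicate 1.

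The adipocyte markers differed in how they ran with Scd, and none passed adjustment. Adipoq, which encodes the adipocyte hormone adiponectin, read 7.27, 6.47, 6.70 and 6.82 in CN and 7.49, 6.81, 6.47 and 8.01 in LP, with the same LP replicates 1 and 4 highest. Its r with Scd was 0.932 in the early arrays (exact permutation p = 0.00134, adjusted p = 0.376, rho = 0.786 with exact permutation p = 0.0279 and adjusted p = 0.890) and 0.668 without LP replicates 1 and 4. In the late arrays Adipoq read 7.06, 6.91 and 6.65 in CN-R and 6.81, 6.67, 6.76 and 6.46 in LP-R, and r with Scd was 0.940 (exact permutation p = 0.00377, adjusted p = 0.268, rho = 0.964 with exact permutation p = 0.00278 and adjusted p = 0.261), or 0.703 without LP-R replicate 4 and CN-R replicate 1. Early r with Scd was 0.946 for Thrsp, an inducer of lipogenic genes, 0.917 for the droplet protein gene Cidec and 0.884 for Pck1. Without LP replicates 1 and 4 these were 0.748, 0.775 and 0.623. Over all 8 arrays r with Scd was 0.457 for Cfd, the adipocyte protease adipsin, 0.184 for Cidea, and -0.613 for Car3, a carbonic anhydrase that muscle also makes in quantity. In the late arrays it was 0.963 for Thrsp, 0.633 for Cfd, 0.587 for Cidea and 0.766 for Car3. Without LP-R replicate 4 and CN-R replicate 1 it was 0.786 for Thrsp, 0.139 for Cfd and 0.644 for Cidea. The sign for Car3 was thus opposite in the early and late arrays (exact permutation p = 0.116 and 0.0442). Its early r was 0.0034 without LP replicates 1 and 4, and its late r 0.396 without LP-R replicate 4 and CN-R replicate 1.

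Of the 22 adipocyte marker probe sets 11 varied in the early arrays, of which 4 were called higher (Adipoq and 3 of Thrsp) and 2 lower (Car3), with a median change of 0.096. By comparison, 13.1% of all varying early probe sets were called higher and 12.5% lower. The mean log2 signal over these 11 ran from 7.71 to 7.97 in CN and from 7.62 to 8.29 in LP, with LP replicate 4 highest. In the late arrays 6 varied, all lay below 0, and 2 were called lower (Car3 and Cfd), with a mean signal from 8.92 to 9.11 in CN-R and from 8.76 to 8.95 in LP-R. Of all varying late probe sets, 4.32% were called lower. The defining markers Plin1, Lep, Lipe, Adrb3 and Cebpa were nearly constant in both sets. In whole muscle, fewer cells of a type and less RNA per cell cannot be told apart, and the part of adipocytes in the Scd and Fasn values was not tested.

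Lpl, Cd36 and Fabp4 are also found in or at capillary endothelium. Of 18 endothelial marker probe sets 10 varied early and 5 of them were called higher in LP (Kdr, Emcn, Gpihbp1, Cldn5 and Tie1) and none lower, while 2 lay below 0, with a median of 0.13 and a mean signal from 8.24 to 8.35 in CN and from 8.31 to 8.52 in LP. In the late arrays 5 varied and none was called. The early share called higher over all varying probe sets was 13.1%. Slow fiber markers had 7 of 17 varying probe sets called lower in LP-R (all varying: 4.32%) and none of 13 called in LP. All 13 nevertheless lay below 0 in LP, with a median of -0.093, and 15 of the 17 in LP-R, with a median of -0.17. Their mean signal ran from 11.38 to 11.60 in CN and from 11.22 to 11.53 in LP. In the late arrays it ran from 10.39 to 10.56 in CN-R and from 10.25 to 10.51 in LP-R. Of fast fiber markers none was called. Among leukocyte markers Lyz2 was called higher in LP-R and none in LP. The red cell gene Hbb and the muscle gene Myod1 were called lower in LP-R, and no gene of those 2 lists was called in LP. The part of these cell types in the members' values was not tested.

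Each varying member was also set against all other varying probe sets, and the 3 genes with the highest r are given as a description. In the early arrays these were Fasn, Adamts5 and Thrsp for Scd, with r from 0.949 to 0.959, and Scd, RT1-Bb and Thrsp for Fasn, with r from 0.910 to 0.959. Acaca was closest to Jund (0.974), Slc8a1 (0.912) and Degs1 (0.910). Lpl was closest to Cpt2 (0.986), Nnt (0.960) and Acy1 (0.949), and Cd36 to Synpo2 (0.960), Ppp2ca (0.953) and Gabarap (0.938). Fabp4 was nearest Pcdh17, Tcap and Pdp1 (0.942 to 0.973) and G0s2 nearest Ttc1, Mpp3 and Slc35a1 (0.886 to 0.898).

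In the late arrays Scd was closest to Zfp36 (0.984), Csrp1 (0.972) and Dock9 (0.972), and Acaca to App (0.974), Lnpk (0.973) and Epm2aip1 (0.955). Srebf1 had Usp7 (0.998), Ccnt2 (0.982) and Prpf4b (0.972) nearest to it. Lpl was closest to Bmal1 (0.975), Cst3 (0.962) and Rhobtb1 (0.955), Cd36 to Bcl6 (0.966), Pik3c2g (0.935) and Adprhl1 (0.934), and G0s2 to Clic2 (0.967), Ift25 (0.963) and Tiparp (0.946).

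The genes that work beside the members were taken as lists, counted by probe set. For each list, the shares to compare are those over all varying probe sets. They were 13.1% called higher and 12.5% lower early, and 1.77% and 4.32% late. Ranking the varying probe sets alone left 11 called higher and 21 lower in LP over the whole table. Of the fatty acid supply and synthesis list 11 of 32 varied early and 4 were called higher, the elongase Elovl5 (change 0.16 ± 0.055) and Thrsp (0.20 to 0.36 over 3 probe sets, which also stand in the adipocyte list), with a median of 0.083. The Thrsp changes had SE from 0.19 to 0.36 and exact permutation p from 0.343 to 0.429. In all 3 Thrsp probe sets LP replicates 1 and 4 were above and LP replicate 3 below every CN array. No probe set of the list was called in LP-R, where 9 varied around a median of -0.00016. Acacb, the mitochondrial carboxylase, and Me1, malic enzyme, were nearly constant in both sets. Among genes that control lipid synthesis, 6 of 26 varied early and 2 were called lower: Insig1, which retains the SREBP precursors in the endoplasmic reticulum, at 8.07 in LP against 8.32 in CN (change -0.25 ± 0.087), and Cebpb (-0.21 ± 0.077). The median of this list was -0.077. Srebf2 was nearly constant. None of its 3 late varying probe sets was called (median -0.059). For cholesterol synthesis, 2 of 19 varied early and 5 late, and none was called, with medians of 0.011 and -0.0023.

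Of triglyceride synthesis and lipid droplet genes, 16 of 34 probe sets varied early and 2 were called higher, the droplet coat gene Plin2 (0.19 ± 0.13) and the acyltransferase Agpat3 (0.18 ± 0.15), with a median of 0.019. The acyltransferase Dgat2 had changes of -0.0041 and -0.0056 at its probe sets. None of the 9 late ones was called (median -0.031). Lipolysis genes had 4 of 16 varying early, with the monoglyceride lipase Mgll called higher at 1 probe set (0.090 ± 0.036) and lower at another (-0.21 ± 0.13), and a median of -0.061. Pnpla2, the lipase that G0s2 inhibits, changed by -0.13 ± 0.19 and was not called. Late, 2 varied and none was called (median 0.059).

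Of the uptake list, 13 of 20 varied early and 4 were called higher: Gpihbp1, which anchors Lpl at the capillary wall (9.14 in LP against 8.998 in CN, change 0.14 ± 0.039), and 3 probe sets of the caveolar gene Cav1 (0.14 to 0.20). All of them had an exact permutation p = 0.0286, the smallest this design allows. It marks groups that do not overlap, which were found for 7.9% of varying early probe sets. The median was 0.060, and Fabp3, the fatty acid binding protein of muscle fibers, changed by 0.060 ± 0.091 without a call. None of the 11 late varying probe sets was called (median 0.0049), and the change of Gpihbp1 was -0.020 ± 0.046.

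**Figure D4:**
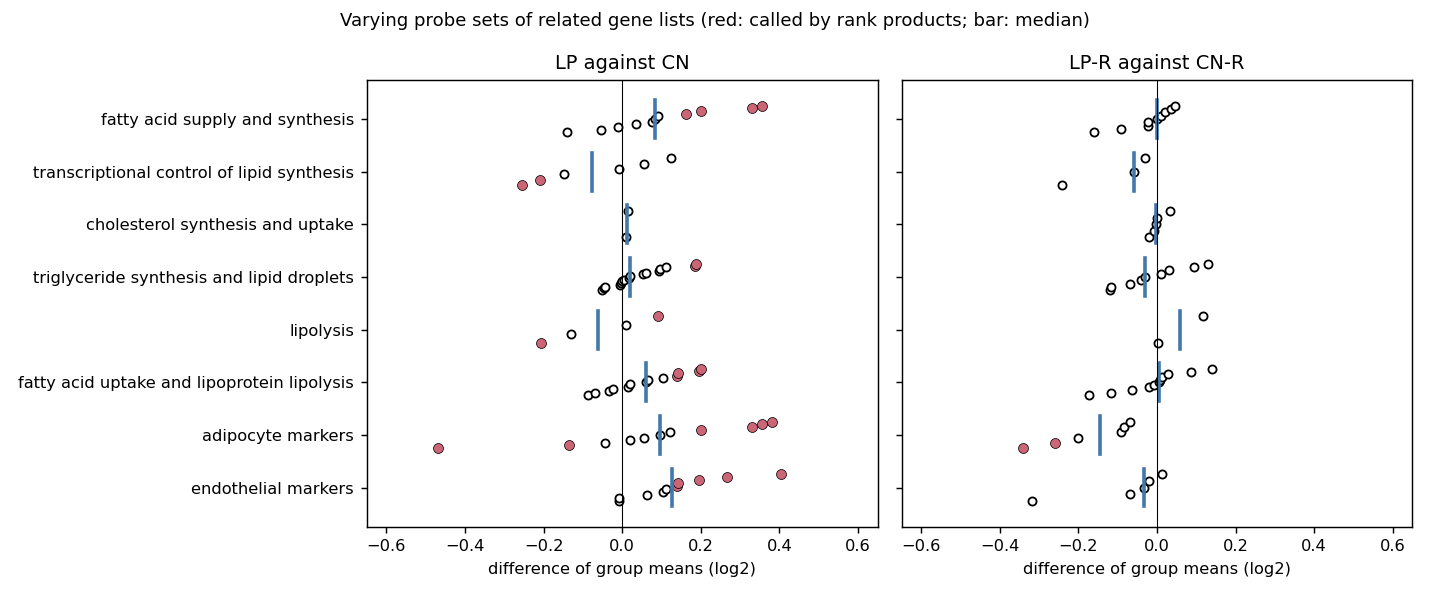
Difference of group means on the log2 scale for each varying probe set of 6 lipid lists and 2 marker lists, LP against CN at left and LP-R against CN-R at right. Red points were called by rank products and bars mark list medians. Early calls lie above 0 for synthesis, droplet, uptake and endothelial lists, below 0 for lipid control genes, and on both sides for lipolysis and adipocyte markers. The late panel holds 2 called points, both adipocyte markers below 0.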

How the data were processed

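RNA of 15 gastrocnemius muscles was measured on Affymetrix rat genome arrays, 1 per rat. The authors deposited log2 signals per probe set, which they made with FARMS in R. The study's methods do not state whether early and late arrays were summarized apart. This was inferred, because of 26041 probe sets nearly constant in both sets, 94.7% shift by over 0.01. The number of arrays limits the precision. CN-R replicate 3 and the methylation arrays were not analysed here. Control probe sets (57) were left out, and of 31042 others 20826 carry 1 gene symbol, 436 several and 9780 none.

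Rank products over all pairs of arrays (100 permutations, seed 1, pfp up to 0.05, null pooled over both directions) were computed with own code (numpy 2.4.6, Python 3.11.15). limma 3.58.1 ran in R 4.3.3 with Benjamini-Hochberg adjustment over all probe sets. Exact permutation tests were two-sided, on the absolute difference of means, over 70 splits of the early and 35 of the late arrays. Their p for single changes were not adjusted, and those of correlations were adjusted over all varying probe sets. Rank products and limma were tested on simulated data, and the exact test of a difference of means on a small example. The exact tests of correlations and of differences between changes were not tested in this way. Errors of changes are SE. The 10 genes, the 6 lipid lists, the 7 marker lists and the tests were chosen with earlier results of these data known. Named are the members, the 3 genes of highest r to each, genes called within a list, and 10 central lipid genes; other markers were named after their values were seen. Alternatives covered the test, normalization, filters, a replicate block and each array left out.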

Additional observations from a re-analysis of the deposited data

Results flagged for a closer look

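The change of Acaca after restriction differed between LP and LP-R by 0.51 on the log2 scale: it was 0.28 in LP and -0.23 in LP-R, with all 4 LP arrays above all CN arrays and all 4 LP-R arrays below all 3 CN-R arrays. The exact permutation p was 0.000816 before and 0.508 after adjustment over 2073 probe sets. The difference lay between 0.46 and 0.56 with any 1 array left out. In the members' 22 groups of 4 arrays, no array was far enough from the rest to be singled out, where chance alone would single out about 1 in 20.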

How the results depend on the processing

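Quantile normalization, centring arrays on their medians and leaving out the dimmest 25% of probe sets kept the counts of 4 members called higher in LP and 1 lower in LP-R. Over all probe sets, rank products on the varying ones alone called 11 higher and 21 lower in LP (519 and 498 as reported) and 4 and 2 in LP-R (55 and 134). Without the dimmest 25% they were 301 and 370 in LP and 43 and 64 in LP-R, and with CN-R replicate 4 counted as LP-R they were 19 and 40. Leaving out 1 array gave 170 to 318 higher and 198 to 446 lower in LP, and 5 to 62 and 7 to 134 in LP-R. With varying probe sets alone 1 member was called higher in LP and 0 lower in LP-R. limma, with or without the replicate block, called 0 in each. Leaving out 1 array gave 2 to 4 higher in LP (2 without LP replicate 1, CN replicate 2 or CN replicate 3), and 0 to 2 lower in LP-R (2 without LP-R replicate 2). With CN-R replicate 4 counted as LP-R, or a null for each direction (an alternative chosen after seeing the data), 0 were lower in LP-R. Without 1 array the differences between early and late changes ran from 0.77 to 1.67 for Scd, 0.46 to 0.56 for Acaca, 0.083 to 0.22 for Lpl, 0.10 to 0.62 for G0s2 and 0.078 to 0.15 for Cd36. Changes that turned sign were Lpl in LP without LP replicate 3 (-0.011), LP replicate 4 (-0.0026) or CN replicate 3 (-0.018; up to 0.095 without LP replicate 1), G0s2 in LP without LP replicate 3 (-0.020) or CN replicate 3 (-0.092; up to 0.42 without CN replicate 4), Srebf1 in LP-R without LP-R replicate 2 (-0.056; up to 0.13 without LP-R replicate 4), and G0s2 in LP-R without LP-R replicate 3 (0.031) or 4 (0.030) or with the replicate block (0.031; down to -0.47 without LP-R replicate 2). The cause was not tested. With no CN-R replicate 3 analysed, the late replicate block leaves out LP-R replicate 3, so its changes repeat those without that array. Deviations of same-numbered arrays correlated from -0.031 to 0.551 over 4 early pairs and from 0.0441 to 0.215 over 3 late pairs, so the numbers were not taken to pair rats. Rank products with the replicate block gave 5 members higher in LP, with Fabp4 added, and 1 lower in LP-R. With 4 or 3 rats in a group, changes such as those of Lpl and Cd36 were within the spread between rats.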
